A study of Mus musculus with 43 samples.

Results

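The comparison is of whole hearts of mice carrying the Q150X allele of Vegfa with whole hearts of wild-type mice, both taken 7 days after myocardial infarction (MI). Q150X is a CRISPR/Cas9-made stop-gained allele, meant to mimic a human VEGFA variant, and the labels call its carriers ho. The members are the 8 bulk RNA libraries that the labels give as heart, total cells, 7dpMI, with genotype Q150X (4 libraries) or wild type (4 libraries), of 43 libraries in the series. Every library of both groups is labelled as an infarcted heart of the same day, so only the genotype differs by label. The labels give no infarct size, and its part in the values below was not tested. RNA was extracted with Trizol, and 2 µg went into each library. The strain, the sex and age of the mice, and the part of the heart taken remain not given in the sources used here. Whether the replicates are separate animals is also not given, so the p-values measure the spread between libraries. Uninjured hearts (3 wild type, 3 Q150X) and hearts 30 days after MI (3 wild type, 4 Q150X) entered the same fit. They help set the spread behind every day-7 standard error, interval and p, and their own values serve below to place the day-7 ones.

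VEGFA is a secreted growth factor that binds the tyrosine kinase receptors KDR (VEGFR2) and FLT1 (VEGFR1) on endothelial cells. KDR carries most of the signal for endothelial growth, survival and permeability, FLT1 binds the ligand tightly and limits how much reaches KDR, and the neuropilins act as co-receptors. In the heart, cardiomyocytes make much of the VEGFA that keeps the dense capillary bed, and after infarction new vessels, macrophages and scar-forming fibroblasts fill the border of the lost muscle. In bulk tissue, fewer cells of a type and less RNA per cell cannot be told apart, which holds for every result below.

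The libraries held 29862324 to 37356177 counts and 22019 to 23256 genes with at least 1 count, and none of the 12 pairs of replicates was identical. Summed RNA of 20 genes of cardiomyocyte structure was 59222 to 78656 CPM (the count of a gene scaled to the size of its library) in all 8, so each carried the RNA of its labelled tissue, and the genes of endothelium summed to 1814 to 2155 CPM. A pair of libraries stood apart. Q150X library 2 held 84 genes at over 4 times the level of any other day-7 library, and wild-type library 4 held 55. The other 6 libraries held 0 or 1 such gene each (of 17845 tested, at a level of at least 2 CPM). In Q150X library 2 the genes were led by those that interferon-gamma induces. Wild-type library 4 carried genes of the placenta. Of 14 placental genes listed only 1 passed the filter and was tested, so the count for that library leaves most of them out. Results led by either are given with all 8 libraries and from a second fit without these 2, written as without both libraries. Where 4 values are listed, they run from library 1 to library 4 of the group.

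**Figure D1:**
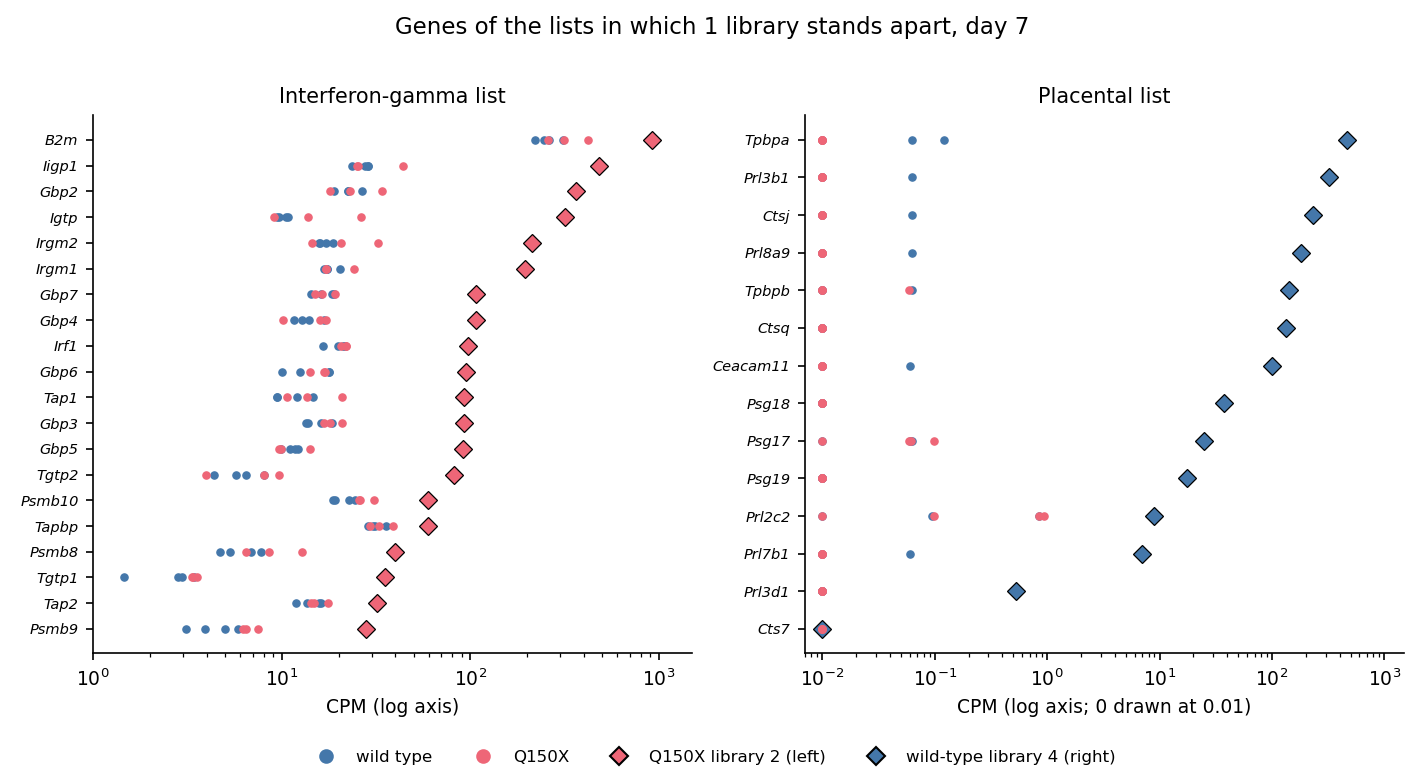
CPM (log axis) of each of the 20 interferon-gamma genes (left) and the 14 placental genes (right) in each of the 8 day-7 libraries, with blue for wild type and red for Q150X. Diamonds mark Q150X library 2 on the left, where it is the highest library for all 20 genes, and wild-type library 4 on the right, where 12 of 14 genes stand at 6.92 CPM or more and no other library exceeds 0.94 CPM for any of them.

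No gene was called different between Q150X and wild-type hearts at day 7. A difference was called where the p of edgeR's quasi-likelihood test, adjusted over all 17845 genes tested by the method of Benjamini and Hochberg, was under 0.05. The count of called genes was 0 (0% of genes tested), the smallest adjusted p was 1, and the smallest unadjusted p was 5.69e-04. Of the other tools run, DESeq2 called 4 genes, led by single libraries, and voom 0. At an unadjusted p under 0.05 there were 379 genes with a higher level in Q150X (2.12%) and 182 with a lower one (1.02%), together 561 genes (3.14%). Over all genes tested, whatever their p, the ranges of CPM of the groups did not overlap for 279 genes higher in Q150X (1.56%) and 171 lower (0.958%). Without both libraries the test again called 0 genes, with 179 higher (1.01%) and 166 lower (0.94%) at an unadjusted p under 0.05. With 3 libraries a group the ranges of CPM separated for 1121 genes higher in Q150X (6.35%) and 796 lower (4.51%). The values below are log2 fold changes of Q150X against wild type ± standard error (SE), and none passed the adjusted test. A negative value means a lower level in Q150X. The shares of genes without overlap given here are the background for each gene said below not to overlap.

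The fit bounds many differences even so. The 95% interval of the log2 fold change lay within a 2-fold change in either direction for 11773 genes (66%), and without both libraries for 10779 (61%). The median width of the interval to each side was 0.51 on the log2 scale, and the widest 10% of genes exceeded 1.55. The median value over all genes tested was 0.01, and 51.9% of genes had a value above 0. Without both libraries these last values were 0.02 and 54.1%.

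Unadjusted p-values under 0.05 gathered on genes that 1 library carries. Of the 379 genes with a higher level in Q150X, 280 (73.9%) had their highest CPM in Q150X library 2, against 20.7% of the 9256 genes with a value above 0 at any p. Of the 182 with a lower level, 82 (45.1%) had their highest CPM in wild-type library 4, against 18.1% of the 8576 genes with a value below 0. Genes picked for a direction tend to peak in the group they favour, so these shares are descriptions. Without both libraries, 88 of the 379 genes still had an unadjusted p under 0.05 in the same direction (23.2% of them, and 49.2% of the 179 found there). For the lower genes the overlap was 72 (39.6% of 182 and 43.4% of 166).

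Vegfa mRNA was detected in all 8 libraries. Its level was 272, 356, 282 and 254 CPM in the wild-type libraries and 314, 289, 313 and 328 CPM in the Q150X libraries. The groups overlapped, and the highest value and the 3 lowest were all in wild type. The difference was 0.10 ± 0.34 (95% interval -0.62 to 0.81, unadjusted p = 0.781). A count per gene does not read the codon, so the level neither shows nor checks the allele.

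Of the 10 genes of VEGF ligands and receptors, 0 reached an unadjusted p under 0.05, and for all 10 the 95% interval lay within a 2-fold change either way. Their median log2 fold change was -0.11, against 0.01 over all genes, and it turned to 0.02 without wild-type library 2. Their summed level was 928, 1024, 949 and 945 CPM in wild type and 883, 911, 891 and 972 CPM in Q150X, with overlap. Flt1, the decoy-like receptor, had the largest value of the 10, at 214, 164, 247 and 305 CPM in wild type and 137, 221, 180.4 and 209 CPM in Q150X. Both its lowest value, in Q150X library 1, and its highest, in wild-type library 4, fell at the edges of overlapping groups, and the difference was -0.32 ± 0.25 (95% interval -0.85 to 0.21). Kdr stood at 158, 204, 135 and 145 CPM in wild type and 155, 157, 122 and 158 CPM in Q150X, where library 3 was below the other 3. Its difference was -0.12 ± 0.27, and -0.19 ± 0.33 without both libraries.

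The other ligands gave values close to 0. Placental growth factor (Pgf), which binds Flt1, stood at 10.1, 9.84, 9.38 and 10.4 CPM in wild type and 7.32, 9.31, 9.71 and 9.29 CPM in Q150X (-0.16 ± 0.21). Vegfb, a ligand of Flt1 that is abundant in heart muscle, differed by -0.01 ± 0.21. The lymphatic ligands Vegfc and Vegfd differed by -0.09 ± 0.22 and 0.06 ± 0.42, and their receptor Flt4 by 0.04 ± 0.18. The neuropilins Nrp1 and Nrp2 differed by -0.13 ± 0.17 and -0.14 ± 0.30. In no gene of the list did the groups separate.

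**Figure D2:**
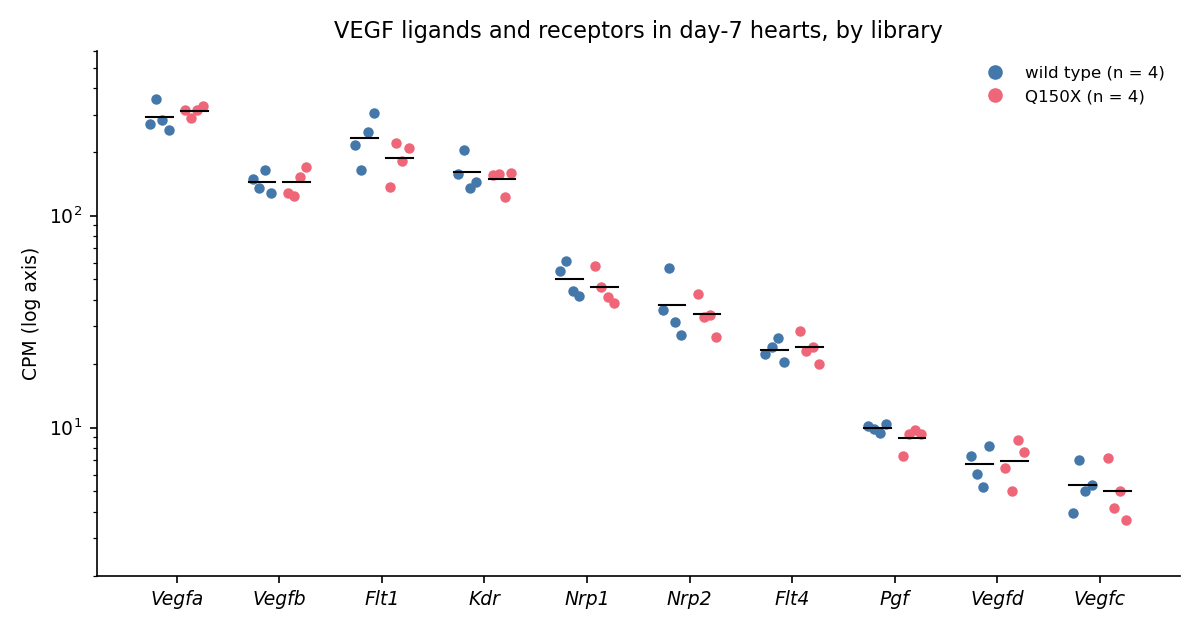
CPM (log axis) of the 10 VEGF ligands and receptors in each of the 4 wild-type (blue) and 4 Q150X (red) day-7 libraries, with black lines at the group means. CPM is not scaled to gene length, so heights compare groups and not genes, and the points of both groups overlap for each of the 10 genes.

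Endothelial genes were spread evenly about 0. Of 22 genes of endothelial identity, 0 reached an unadjusted p under 0.05, 11 had a value above 0, and all 22 intervals lay within a 2-fold change. Their median was 0.00 with all libraries and 0.00 without both. Their summed level was 1953, 2155, 1973 and 1959 CPM in wild type and 1814, 1897, 1998 and 2025 CPM in Q150X, highest in wild-type library 2 and lowest in Q150X library 1. Cdh5, the adherens junction cadherin of endothelium, stood at 199, 232, 177 and 187 CPM in wild type and 184, 148, 198 and 173 CPM in Q150X (-0.18 ± 0.17). Sox7, a transcription factor of endothelial fate, had one of the smallest p of the list, at 14, 19.5, 14.5 and 16.3 CPM in wild type and 11.3, 11, 13.5 and 15.5 CPM in Q150X (-0.32 ± 0.25, unadjusted p = 0.205). In both genes the groups overlapped.

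Other vessel lists had medians from -0.05 to 0.23. The 24 genes of angiogenic sprouting had a median of -0.05, the 12 of arterial endothelium 0.04, the 10 of venous and activated endothelium 0.14 and the 11 of capillary fatty acid transport 0.13, and no gene of these lists reached an unadjusted p under 0.05. Gpihbp1, which carries lipoprotein lipase across capillary endothelium, stood at 102, 106, 118 and 120.5 CPM in wild type and 102, 119, 127 and 161 CPM in Q150X (0.19 ± 0.18). The 8 lymphatic genes had a median of 0.23 (0.29 without both libraries), with 7 values above 0 and 0 under that p.

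The angiopoietin and Tie genes, a second signalling system of vessel wall and endothelium, had values below 0 in 6 of 6. They had a median of -0.24, and -0.22 without both libraries, where 1 gene had a value above 0. Angpt1, the mural-cell ligand that stabilises vessels through TEK, stood at 21.7, 20.9, 22.5 and 24.2 CPM in wild type and 18.5, 20.7, 16.9 and 18.5 CPM in Q150X. All 4 Q150X libraries were below all 4 wild-type libraries, as they were for 0.958% of genes tested, and the difference was -0.26 ± 0.17 (95% interval -0.61 to 0.10, unadjusted p = 0.143). Angpt2, which opposes it and marks vessels under remodelling, stood at 3.03, 4.48, 2.10 and 4.77 CPM in wild type and 3.01, 2.70, 2.80 and 1.79 CPM in Q150X (-0.48 ± 0.33), with overlap.

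Genes of pericytes and smooth muscle, the contractile cells around vessels, had a summed level that did not overlap between the groups, as 1 of the 59 lists did. Among single genes, 1.56% of those tested did not overlap and were higher in Q150X, and 0.958% were lower. Their summed level was 1353, 1269.9, 1363 and 1368 CPM in wild type and 1065, 1143, 1232 and 1139.7 CPM in Q150X, so every Q150X library was below every wild-type library. Of 14 genes, 4 had a value above 0, and the median was -0.17 (-0.13 without both libraries). An unadjusted p under 0.05 was reached by 2, both lower in Q150X (1.02% of all genes). Notch3, the Notch receptor of mural cells, stood at 35.3, 41.7, 32.7 and 29 CPM in wild type and 27.4, 26.5, 24.1 and 24.9 CPM in Q150X. Its groups did not overlap, and its difference was -0.43 ± 0.17 (95% interval -0.78 to -0.07, unadjusted p = 0.0201), and -0.52 ± 0.20 without both libraries (unadjusted p = 0.0178). It was also the 1 gene of 13 in the list of vascular Notch signalling under that p.

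The potassium channel genes on the pericyte list gave like values, and which cells of the heart carried their RNA was not tested. Kcnj8, the pore subunit of the ATP-sensitive channel, stood at 33.1, 28.7, 27.3 and 40.2 CPM in wild type and 25, 24.8, 26.7 and 28.3 CPM in Q150X (-0.30 ± 0.14, unadjusted p = 0.0375). Wild-type library 4 was the highest, and without both libraries the value was -0.16 ± 0.15 (unadjusted p = 0.305). Abcc9, its regulatory partner, stood at 258, 194, 258 and 223 CPM in wild type and 174, 216, 164 and 175 CPM in Q150X (-0.36 ± 0.21). For Abcc9 only Q150X library 2 reached into the wild-type range. Rgs5, a signalling regulator that marks pericytes, stood at 755, 732, 813 and 823 CPM in wild type and 599, 643, 747 and 661 CPM in Q150X (-0.24 ± 0.20), and only Q150X library 3 reached into the wild-type range.

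Interferon-gamma is a cytokine of activated T and NK cells that acts on most cell types and induces immune GTPases, the immunoproteasome and peptide loading for MHC class I. Of 20 such genes, 15 reached an unadjusted p under 0.05, all higher in Q150X (2.12% of all genes), and the median was 1.45. All 20 had their highest CPM in Q150X library 2. The summed level was 495, 632, 504 and 543 CPM in wild type and 827, 3501, 529 and 628 CPM in Q150X. Library 2 was thus far above the other 7 and library 1 was the next, while Q150X libraries 3 and 4 lay within the wild-type range. Without both libraries the median was 0.21 and 3 of the 20 reached an unadjusted p under 0.05, all higher in Q150X (1.01% of all genes in that fit).

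The immune GTPases of the list, which attack the vacuoles of intracellular pathogens, were many times higher in library 2 than in the next library. Igtp stood at 9.68, 10.8, 9.47 and 10.6 CPM in wild type and 26.2, 318, 9.04 and 13.8 CPM in Q150X, 12.1 times the next library. The difference was 3.18 ± 0.82 (unadjusted p = 0.00124) and 0.71 ± 0.33 without both libraries (unadjusted p = 0.0432). Gbp2 stood at 22.4, 26.5, 18.8 and 22.4 CPM in wild type and 33.9, 363, 18 and 23 CPM in Q150X, and Iigp1 at 28.7, 27.5, 23.5 and 28.6 CPM in wild type and 44, 482, 25.1 and 25.4 CPM in Q150X. For both, Q150X library 2 was over 10 times the next library, and without both libraries the values were 0.14 ± 0.34 and 0.24 ± 0.39. Irgm1 and Irgm2 in Q150X library 2 were 8.01 and 6.53 times the next library, and Irf1, an induced transcription factor, 4.47 times. Their values were 1.81 ± 0.60, 2.04 ± 0.60 and 1.03 ± 0.54, and 0.09 ± 0.27, 0.38 ± 0.29 and 0.16 ± 0.48 without both libraries. The near-identical pair Tgtp1 and Tgtp2 stood 9.87 and 8.54 times above the next library, with the split of reads between them uncertain, as is that within the Gbp family. Their values of 2.10 ± 0.78 and 2.08 ± 0.82 became 0.40 ± 0.61 and 0.10 ± 0.62 without both libraries.

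The immunoproteasome and peptide-loading genes were less uneven. Psmb9, a catalytic subunit of the immunoproteasome, stood at 3.91, 4.98, 3.12 and 5.86 CPM in wild type and 7.45, 28.1, 6.48 and 6.22 CPM in Q150X. All 4 Q150X libraries were above all 4 wild-type ones, and the difference was 1.43 ± 0.38 (unadjusted p = 0.00131), and 0.75 ± 0.22 without both libraries (unadjusted p = 0.00379). Psmb10, another subunit, stood at 18.8, 24.4, 22.7 and 19 CPM in wild type and 30.7, 59.8, 26 and 25.8 CPM in Q150X, again without overlap (0.74 ± 0.23, and 0.32 ± 0.20 without both libraries). Psmb8 stood at 5.34, 7.80, 4.70 and 6.86 CPM in wild type and 12.7, 39.8, 6.45 and 8.53 CPM in Q150X, with overlap (1.45 ± 0.40, and 0.64 ± 0.27 without both libraries). The peptide transporter gene Tap1 stood at 9.43, 14.6, 9.41 and 12 CPM in wild type and 20.9, 92.6, 10.6 and 13.5 CPM in Q150X (1.60 ± 0.49, and 0.43 ± 0.29 without both libraries). The class I light chain B2m stood at 221, 311, 244 and 261 CPM in wild type and 417, 912, 257 and 314 CPM in Q150X, where Q150X library 3 was within the wild-type range (0.87 ± 0.28, and 0.35 ± 0.22 without both libraries). Of these 5 genes, Psmb9 and Psmb8 kept an unadjusted p under 0.05 without both libraries, and with Igtp they are the 3 of the list that did.

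Interferon acts on promoters through 2 kinds of sequence element. The GAS element was searched as TTCNNNGAA and the interferon-stimulated response element (ISRE), bound by IRF factors, as GAAA, any 2 bases and GAAA again, each on both strands and with overlapping matches kept. The windows were the 300 bases from 250 before to 50 after the gene start in RefSeq's GRCm38.p6 table. Of all 32851 promoters, 2726 (8.3%) held a GAS match, 1131 (3.44%) an ISRE match and 149 (0.454%) both. A promoter was used for 16 of the 20 genes (18 promoters, with those of the other genes not used here), and 10 of the 16 genes had an ISRE match, 8 a GAS match and 12 either. A match is a description of these letters, not a site or a cause.

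In 4 of the 16 genes with a promoter used, a GAS match was followed by an ISRE match that began 11 bases after the start of the first. This arrangement was found in 5 of all 32851 promoters (0.0152%). It was noticed in these promoters, so its share is a description. The 5 are the promoters of Igtp, Irgm2, Tgtp1, Tgtp2 and Gm12185, all on chromosome 11. The 5 windows are shown because the genes are the ones that share this arrangement and were all highest in Q150X library 2, and capitals mark the matches. They lie at chr11:58199501-58199541 (Igtp, plus strand), chr11:58214892-58214932 (Irgm2, plus), chr11:48992304-48992344 (Tgtp1, minus), chr11:49064263-49064303 (Tgtp2, minus) and chr11:48927238-48927278 (Gm12185, minus), each 5′ to 3′ along the gene.
Igtp: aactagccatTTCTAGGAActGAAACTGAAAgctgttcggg
Irgm2: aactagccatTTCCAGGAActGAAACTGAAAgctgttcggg
Tgtp1: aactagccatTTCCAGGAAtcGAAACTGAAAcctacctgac
Tgtp2: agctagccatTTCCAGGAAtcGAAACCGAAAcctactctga
Gm12185: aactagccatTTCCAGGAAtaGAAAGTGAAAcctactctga
The windows are alike beyond the motifs, so the 5 genes share sequence and are not independent examples. Gm12185 is outside the list and was named after its values were seen. It stood at 0.243, 0.439, 0.419 and 0.412 CPM in wild type and 1.16, 23.8, 0.274 and 1.06 CPM in Q150X (4.10 ± 1.09, unadjusted p = 0.00143), and at 1.17 ± 0.77 without both libraries.

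Irgm1 and Gbp2 are shown as genes that stood over 8 times above the next library in Q150X library 2 and have no GAS match in the window. Their ISRE matches are in capitals, on the strand opposite to the gene for Gbp2 and as a pair of overlapping matches for Irgm1. The Irgm1 window is chr11:48871425-48871460 (minus strand) and the Gbp2 stretch, the 120 bases before its start, is chr3:142620543-142620662 (plus strand).
Irgm1: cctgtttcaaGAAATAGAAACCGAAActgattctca
Gbp2: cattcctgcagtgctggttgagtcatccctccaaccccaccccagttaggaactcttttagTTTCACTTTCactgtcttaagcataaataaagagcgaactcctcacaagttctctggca
The ISRE match began 59 bases before the start in Gbp2 and 34 bases before it in Igtp. Psmb9, Psmb10, Tap1 and Tapbp had no match of either kind in their windows.

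The 30 genes of the type I interferon response, the antiviral arm of the interferon system, followed the same library. Of the 30, 6 reached an unadjusted p under 0.05, all higher in Q150X (2.12% of all genes). The highest CPM was in Q150X library 2 for 27 of them. The summed level was 319, 356, 274 and 335 CPM in wild type and 373, 733, 318 and 348 CPM in Q150X. The median was 0.51, and 0.16 without both libraries, where 0 of 30 reached that p. Zbp1, a sensor of left-handed nucleic acid, stood at 2.61, 1.54, 0.539 and 3.18 CPM in wild type and 3.01, 24.7, 1.58 and 2.71 CPM in Q150X (2.02 ± 0.72, and 0.64 ± 0.51 without both libraries). The chemokine Cxcl9, which draws T cells, stood at 1.73, 4.67, 2.13 and 3.47 CPM in wild type and 7.94, 89.4, 1.98 and 4.03 CPM in Q150X (3.11 ± 0.99, and 0.72 ± 0.71 without both libraries).

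The placental genes were carried by wild-type library 4. Tpbpa, of the spongiotrophoblast layer, stood at 0.121, 0.0627, 0 and 466 CPM in wild type and at 0 counts in all 4 Q150X libraries. Prl3b1, a placental lactogen, stood at 0, 0.0627, 0 and 319.8 CPM and at 0 counts in Q150X. The 14 placental genes summed to 1670 CPM in wild-type library 4 and to at most 1.06 CPM in each of the other 7. Peg10, an imprinted gene needed for placenta formation, stood at 1.85, 1.19, 2.34 and 114 CPM in wild type and 1.65, 1.18, 1.77 and 1.95 CPM in Q150X, which gave a value of -4.18 ± 1.12 (unadjusted p = 0.00164) and of -0.01 ± 0.39 without both libraries. Xist, RNA of the inactive X chromosome, stood at 0.303, 0.627, 0.449 and 4.15 CPM in wild type and 0.0493, 0.0588, 0.335 and 0.198 CPM in Q150X, highest in the same library (-3.10 ± 0.83, and -1.25 ± 0.77 without both libraries). Krt8, an epithelial keratin of trophoblast and of mesothelium, stood at 0.728, 1.504, 1.02 and 50.9 CPM in wild type and 2.93, 0.441, 1.98 and 1.26 CPM in Q150X, and its value turned from -3.02 ± 1.35 to 0.93 ± 1.08 without both libraries.

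Genes of monocytes and macrophages, which clear the infarct and direct the scar, were higher in Q150X by value throughout their list. All 22 had a value above 0 (51.9% of all genes did), 11 reached an unadjusted p under 0.05, all higher in Q150X (2.12% of all genes), and the median was 0.74. Summed CPM was 677, 1039.5, 531 and 762 CPM in wild type and 1383, 1833, 1000.01 and 838 CPM in Q150X. Q150X libraries 1 and 2 were above all wild-type libraries, and libraries 3 and 4 were below wild-type library 2. Of the 22 genes, 15 were highest in Q150X library 2. Without both libraries all 22 values remained above 0 with a median of 0.55, and 0 reached an unadjusted p under 0.05. In none of the 22 did the groups separate, with all 8 libraries or without both.

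The macrophage genes share most of this pattern. Lyz2, lysozyme of myeloid cells, stood at 220.0, 356, 169.7 and 225 CPM in wild type and 506, 706, 306 and 267 CPM in Q150X (0.88 ± 0.32, and 0.53 ± 0.35 without both libraries). Aif1, an actin-binding protein of macrophages, stood at 2.12, 3.60, 1.02 and 2.38 CPM in wild type and 7.05, 12.8, 3.68 and 2.48 CPM in Q150X (1.51 ± 0.46, unadjusted p = 0.00412, and 0.97 ± 0.48 without both libraries). Fcgr1, the high-affinity receptor for IgG, stood at 3.55, 4.86, 1.80 and 2.97 CPM in wild type and 7.99, 21.2, 3.77 and 3.83 CPM in Q150X (1.48 ± 0.51, and 0.62 ± 0.47 without both libraries). In all 3, wild-type library 2 was the highest of its group and stood above Q150X library 4. Adgre1, the F4/80 antigen, stood at 8.67, 21.1, 8.57 and 8.21 CPM in wild type and 29.7, 27.8, 8.92 and 11.3 CPM in Q150X (0.74 ± 0.41, and 0.38 ± 0.46 without both libraries), with Q150X libraries 3 and 4 inside the wild-type range.

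Resident macrophages, which seed the heart before birth, had a list that shares Cd163 and Mrc1 with the monocyte and macrophage list. It gave a smaller median of 0.15 over 10 genes, with 0 at an unadjusted p under 0.05. Their summed level was 360.4, 349, 262 and 400.1 CPM in wild type and 423, 359.7, 381 and 343 CPM in Q150X, with overlap. Mrc1, the mannose receptor, stood at 62.6, 49.4, 33.8 and 71.6 CPM in wild type and 67.2, 60.5, 61.6 and 60.6 CPM in Q150X (0.20 ± 0.24, and 0.38 ± 0.28 without both libraries), and F13a1, a transglutaminase of tissue macrophages, at 48, 43.7, 29.1 and 54.3 CPM in wild type and 59.9, 58.3, 35.4 and 51.6 CPM in Q150X (0.23 ± 0.24). The 10 genes of infiltrating monocytes had a median of 1.30, with 2 under that p and higher in Q150X (2.12% of all genes). However, 8 of 10 were highest in Q150X library 2, and the median was 0.57 without both libraries. Ly6c2, the antigen of inflammatory monocytes, stood at 0.637, 0.595, 0.449 and 0.530 CPM in wild type and 1.26, 15.2, 0.883 and 0.463 CPM in Q150X (3.00 ± 0.84, and 0.64 ± 0.53 without both libraries). The 15 genes of lipid-associated phagocytes had a median of 0.15. The 2 lists of resident and infiltrating cells were not tested against each other.

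Complement genes had values above 0 in 16 of 16, with and without both libraries. Their median was 0.54, and 0.46 without both. With all 8 libraries 2 reached an unadjusted p under 0.05, higher in Q150X (2.12% of all genes). The summed level was 1131, 1015, 834 and 1283 CPM in wild type and 1484, 2029.7, 1247 and 1241 CPM in Q150X, where wild-type library 4 stood above Q150X libraries 3 and 4. C1qb and C1qc, chains of the C1q complex that macrophages secrete, were the 2 genes. C1qb stood at 55.8, 84.9, 50.2 and 58.5 CPM in wild type and 128, 122, 101 and 77 CPM in Q150X (0.78 ± 0.29, unadjusted p = 0.0139, and 0.68 ± 0.35 without both libraries). C1qc stood at 42.8, 60.2, 35.1 and 50.8 CPM in wild type and 83.3, 90.2, 69.9 and 58.7 CPM in Q150X (0.68 ± 0.31, and 0.62 ± 0.38 without both libraries). In both genes the overlap came from wild-type library 2 and Q150X library 4. The C1q genes stand on the macrophage list as well, and the part of macrophage number in the complement values was not tested.

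MHC class II and dendritic cell genes, by which antigen is shown to CD4+ T cells, had a median of 1.16 over 12 genes. An unadjusted p under 0.05 was reached by 7, all higher in Q150X (2.12% of all genes). Without both libraries the median was 0.58 and 0 reached that p. Summed, the list stood at 100.4, 218, 129 and 85 CPM in wild type and 317, 581, 163 and 169 CPM in Q150X, with wild-type library 2 above Q150X libraries 3 and 4. Cd74, the invariant chain, stood at 29.8, 62.7, 39 and 22.3 CPM in wild type and 97.4, 179, 48.4 and 53 CPM in Q150X (1.30 ± 0.42, and 0.60 ± 0.39 without both libraries). H2-Aa, a class II chain, stood at 22.7, 56.5, 30.6 and 19.6 CPM in wild type and 84.1, 152, 41.6 and 40.4 CPM in Q150X (1.30 ± 0.43, and 0.60 ± 0.41 without both libraries), and H2-DMa, which loads its peptides, at 1.61, 3.79, 1.29 and 1.88 CPM in wild type and 5.598, 15.3, 3.10 and 3.47 CPM in Q150X (1.68 ± 0.51, and 0.87 ± 0.49 without both libraries). Each had its highest value in Q150X library 2, and interferon-gamma is known to induce all 3; its part in these values was not tested.

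**Figure D3:**
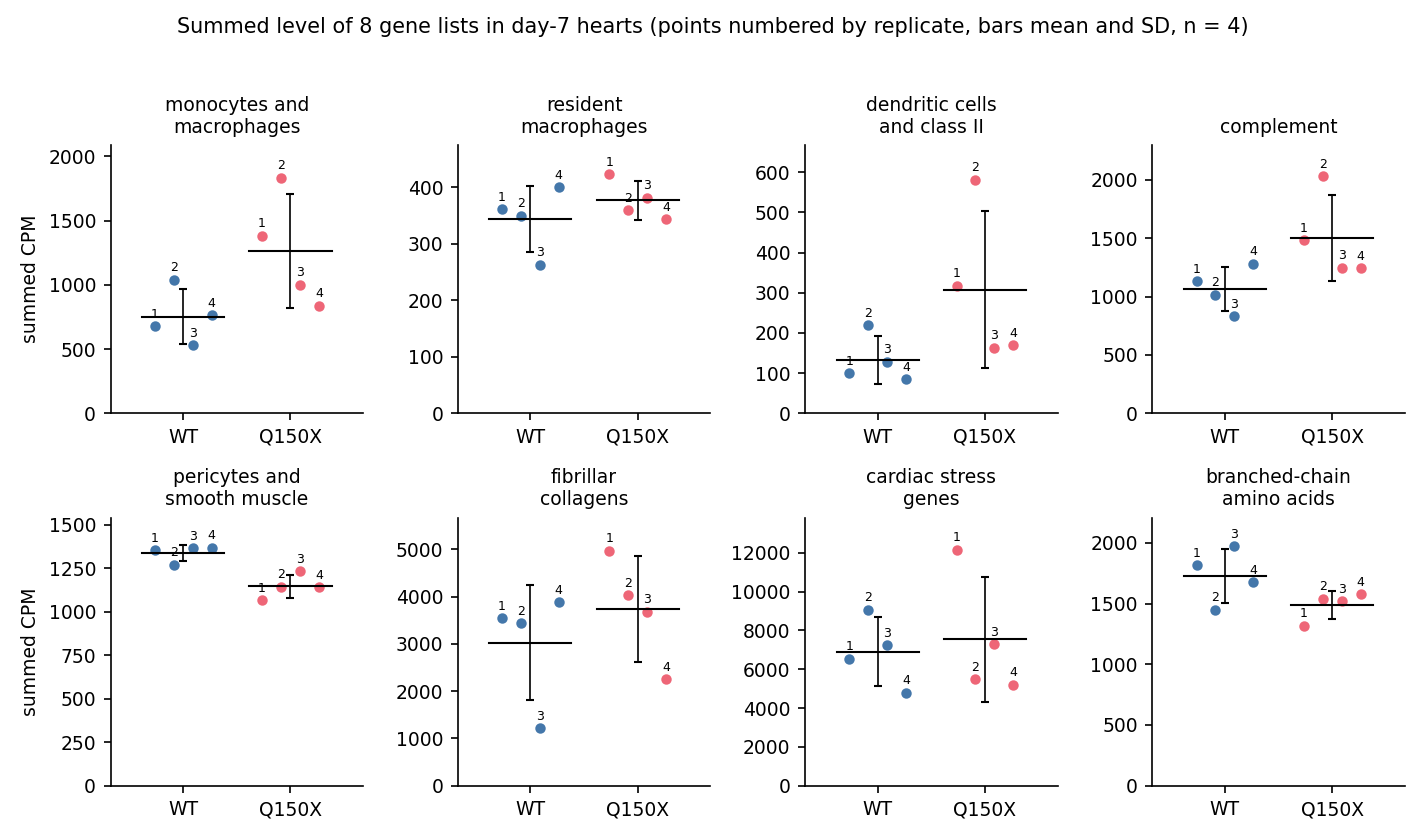
Summed CPM of 8 gene lists in the 4 wild-type (blue) and 4 Q150X (red) day-7 libraries, with points numbered by library and bars for the mean and SD. Pericyte and smooth muscle genes are the 1 of these 8 lists whose groups do not overlap, while Q150X library 2 is the highest for macrophage, class II and complement genes and wild-type library 3 the lowest for collagens.

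Lymphocyte and granulocyte genes were sparse. The 9 genes of B and plasma cells had a median of 0.47 with 3 at an unadjusted p under 0.05, all higher in Q150X (2.12% of all genes). Igkc, the kappa light chain, stood at 6.07, 5.54, 2.52 and 10.01 CPM in wild type and 16.1, 29.99, 4.96 and 11.3 CPM in Q150X (1.37 ± 0.56, and 1.20 ± 0.58 without both libraries), and Jchain, the joining chain of secreted antibody, at 3.00, 2.44, 1.38 and 4.56 CPM in wild type and 6.51, 12.5, 1.61 and 8.83 CPM in Q150X (1.37 ± 0.57, and 1.31 ± 0.64 without both libraries). The groups overlapped in both genes through Q150X library 3. T and NK cell genes summed to at most 15.9 CPM in any library, with a median of 0.30 over 15 genes and 1 under that p, higher in Q150X (2.12% of all genes). That gene was Gzma, a granzyme of cytotoxic cells, at 0.364, 0.313, 0.240 and 0.235 CPM in wild type and 0.419, 3.03, 0.426 and 0.661 CPM in Q150X (1.96 ± 0.66, and 0.70 ± 0.63 without both libraries). Its groups did not overlap, but outside Q150X library 2 these levels rest on few counts, where counting error is large. The median of the list turned to -0.06 without Q150X library 2. The 11 tested neutrophil genes had a median of 0.76 that turned to -0.29 without both libraries, and Csf3r, the G-CSF receptor, stood at 1.67, 4.57, 1.44 and 1.56 CPM in wild type and 5.13, 12.1, 2.50 and 2.94 CPM in Q150X (1.30 ± 0.58, and 0.46 ± 0.60 without both libraries). Of 6 mast cell genes Hdc, which makes histamine, was the 1 under that p, higher in Q150X as 2.12% of all genes were (0.69 ± 0.28, and 0.27 ± 0.28 without both libraries).

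Cytokine and acute-phase genes also turned on Q150X library 2. Of 20 inflammatory cytokines and chemokines, 13 were highest there, and the median went from 1.01 to 0.27 without both libraries. It turned to -0.07 without Q150X library 2 alone, and to -0.27 without both and with the day-7 groups fitted alone. Ccl5, a chemokine of T cells, stood at 0.546, 0.407, 0.659 and 0.471 CPM in wild type and 1.73, 11, 0.365 and 0.661 CPM in Q150X (2.71 ± 0.94, and 0.78 ± 0.87 without both libraries). Saa3, a serum amyloid made in inflamed tissue, stood at 9.83, 21.7, 4.07 and 8.18 CPM in wild type and 73.1, 585, 4.57 and 21 CPM in Q150X (3.97 ± 1.20, and 1.47 ± 1.03 without both libraries). Its second highest library was Q150X 1, and Q150X library 3 was below 3 of the 4 wild-type libraries.

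Collagen and matrix genes, which build the scar, had values above 0 that stayed within the spread of the libraries. All 16 fibrillar collagens and partners had a value above 0, with a median of 0.23 (0.34 without both libraries), and 0 reached an unadjusted p under 0.05. Their summed level was 3548, 3433, 1220.4 and 3883 CPM in wild type and 4970.2, 4037, 3684 and 2257 CPM in Q150X. Wild-type library 3 was the lowest of the 8 and Q150X library 1 the highest, and without either the median was close to 0 (0.00 without wild-type library 3, 0.03 without Q150X library 1). Col3a1, collagen III of young scar, stood at 1485, 1218, 399.7 and 1846 CPM in wild type and 2026, 1881, 1439.7 and 889 CPM in Q150X (0.33 ± 0.39, 95% interval -0.48 to 1.14). Col1a1 stood at 639, 546, 173 and 626 CPM in wild type and 798, 787, 645 and 348 CPM in Q150X (0.38 ± 0.53). In both genes wild-type library 3 was below all others.

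The proteins that process and bind collagen gave the same picture. The 14 genes of lysyl oxidases and collagen processing had 14 values above 0, a median of 0.15 and 0 under that p. With 1 library left out that median ran from 0.05 (without Q150X library 1) to 0.27 (without Q150X library 4). Lox, which cross-links collagen, stood at 118, 147, 58.8 and 136 CPM in wild type and 205, 173, 163 and 94.7 CPM in Q150X (0.47 ± 0.35). The 22 matricellular genes had 18 values above 0 and a median of 0.18, and 14 of them were highest in Q150X library 1. With 1 library left out their median ran from -0.004 (without Q150X library 1) to 0.38 (without wild-type library 2). Sparc, a collagen-binding matricellular protein, stood at 685, 893, 354 and 681 CPM in wild type and 1142, 753, 812 and 538 CPM in Q150X (0.31 ± 0.26). Postn, periostin of activated fibroblasts, stood at 371, 681, 274 and 419.9 CPM in wild type and 902, 241, 762 and 314 CPM in Q150X (0.35 ± 0.41, and 0.58 ± 0.43 without both libraries), with the highest value in Q150X library 1 and the lowest in Q150X library 2. The 15 genes of fibroblast identity had a median of 0.07, and the 20 of TGF-beta signalling -0.01.

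The epicardium and mesothelium, the surface layer of the heart, varied widely between libraries. Its 8 genes summed to 18.9, 23.4, 12.2 and 120.2 CPM in wild type and 47.9, 17, 27.5 and 59.4 CPM in Q150X. The highest sum was in wild-type library 4, which held the placental RNA and its keratins. The median was 0.76, and 1.80 without both libraries, where all 8 values were above 0. Msln, mesothelin, stood at 3.00, 2.22, 0.599 and 5.21 CPM in wild type and 12.9, 2.14, 8.55 and 21.7 CPM in Q150X (2.03 ± 0.96, unadjusted p = 0.0489, and 2.88 ± 1.09 without both libraries, unadjusted p = 0.0189). For Msln, Q150X libraries 1, 3 and 4 were above all wild-type libraries, and Q150X library 2 was below 3 of them. How much surface tissue each sample held was not recorded in the labels and was not tested.

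Stress genes of cardiomyocytes varied more between libraries of a group than between the group means. The 14 stress and fetal genes summed to 6541, 9062, 7245 and 4790.2 CPM in wild type and 12168, 5489.6, 7290.0 and 5202 CPM in Q150X, highest in Q150X library 1 and next in wild-type library 2. The median was 0.06, and 0 reached an unadjusted p under 0.05. Nppa, the atrial natriuretic peptide that strained ventricles re-express, stood at 139, 519.6, 260.3 and 42.2 CPM in wild type and 1102, 59.9, 936 and 176 CPM in Q150X. Its interval was among the widest of the named genes (1.24 ± 1.22, 95% interval -1.34 to 3.83), as Q150X libraries 2 and 4 were below wild-type library 3. Nppb stood at 204, 403, 267 and 94.5 CPM in wild type and 435, 101, 323 and 203 CPM in Q150X (0.13 ± 0.44), and Myh7, the slow myosin heavy chain of the fetal program, at 1127, 1659, 916 and 881 CPM in wild type and 2646, 1077, 676 and 537 CPM in Q150X (0.11 ± 0.41). Xirp1, an intercalated disc protein, stood at 326, 454, 385 and 186 CPM in wild type and 346, 241, 229 and 235 CPM in Q150X (-0.36 ± 0.27). For each of these genes the groups overlapped.

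Metabolic genes of heart muscle had small values below 0. The 24 genes of fatty acid oxidation had a median of -0.16 with 4 values above 0. Acadm, the medium-chain dehydrogenase, was the 1 at an unadjusted p under 0.05, lower in Q150X (1.02% of all genes). Acadm stood at 1351, 1022, 1391 and 1261 CPM in wild type and 913, 1042, 943 and 1145 CPM in Q150X (-0.31 ± 0.14, unadjusted p = 0.0346). Wild-type library 2 stood within the Q150X range, and the other 3 above it. All 13 genes of branched-chain amino acid breakdown had a value below 0, with and without both libraries (median -0.21 and -0.21), and 10 of them were highest in wild-type library 3. With 1 library left out the median ran from -0.28 (without wild-type library 2) to -0.15 (without wild-type library 3). The list summed to 1816, 1448, 1975 and 1674 CPM in wild type and 1319, 1539, 1519 and 1576 CPM in Q150X, and the overlap came from wild-type library 2. Dbt, of the branched-chain dehydrogenase complex, stood at 63.4, 48.3, 64.7 and 57.2 CPM in wild type and 47.7, 52.1, 40.5 and 47.8 CPM in Q150X (-0.31 ± 0.15, unadjusted p = 0.0493). For all 24 and all 13 genes the interval lay within a 2-fold change either way. The 20 genes of cardiomyocyte structure also lay mostly below 0, with 1 value above 0 and a median of -0.06 (4 values and -0.08 without both libraries).

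Respiratory chain genes of the nucleus and of the mitochondrion are given apart. The 46 nuclear genes of oxidative phosphorylation had a median of -0.02, 20 had a value above 0, 0 reached an unadjusted p under 0.05, and 32 of 46 were highest in Q150X library 4. Ndufs1, the largest core subunit of complex I, stood at 505, 411, 519.7 and 421 CPM in wild type and 402, 402, 344 and 432 CPM in Q150X (-0.23 ± 0.15). All 13 genes of the mitochondrial genome had a value below 0 with a median of -0.23, and 11 of 13 values remained below 0 without both libraries. Of the 13, 7 were highest in wild-type library 3. With 1 library left out the median ran from -0.37 (without wild-type library 2) to -0.14 (without wild-type library 3). mt-Co2, a core subunit of cytochrome oxidase, was the 1 under that p, lower in Q150X (1.02% of all genes). It stood at 2177, 1959, 3060.1 and 3127 CPM in wild type and 1288, 1464, 2225 and 2147 CPM in Q150X (-0.54 ± 0.21, unadjusted p = 0.0178, and -0.35 ± 0.24 without both libraries). The share of all counts from the mitochondrial genome was 26.8 ± 2.06% in wild type and 24.9 ± 2.29% in Q150X (SD, n = 4 each). The difference of -1.92 percentage points did not pass an exact two-sided permutation test (p = 0.286, where the smallest p this design allows is 0.0286).

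Among genes outside these lists, some with the smallest p were lower in Q150X. Slc22a3, an organic cation transporter that takes up monoamines, stood at 3.61, 2.88, 4.04 and 2.80 CPM in wild type and 2.12, 1.94, 1.98 and 1.92 CPM in Q150X. The groups did not overlap, and the difference was -0.74 ± 0.19 (unadjusted p = 0.00108), and -0.81 ± 0.23 without both libraries (unadjusted p = 0.00246). Adi1, of the methionine salvage pathway, stood at 19.5, 18.5, 21.3 and 21.2 CPM in wild type and 15.9, 17.9, 14.2 and 12.8 CPM in Q150X, again with all Q150X libraries below all wild-type ones (-0.40 ± 0.12, unadjusted p = 0.00365, and -0.47 ± 0.14 without both libraries). Creg1, a glycoprotein of the endosomal and lysosomal system, stood at 136, 99.8, 131 and 219 CPM in wild type and 95, 119, 83.3 and 97.2 CPM in Q150X (-0.57 ± 0.17). Wild-type library 4 was far above the rest of its group and wild-type library 2 fell within the Q150X range. The value was -0.31 without wild-type library 4, and without both libraries it was -0.41 ± 0.14 (unadjusted p = 0.00813).

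On the higher side, Adam8, a membrane protease of leukocytes, stood at 5.25, 9.77, 5.15 and 5.06 CPM in wild type and 12.2, 15.5, 16 and 8.89 CPM in Q150X (1.06 ± 0.28, unadjusted p = 0.00115). Wild-type library 2 was just above Q150X library 4, and the value was 0.88 ± 0.33 without both libraries (unadjusted p = 0.0157). Fcgr4, an activating receptor for IgG on monocytes, stood at 1.94, 5.14, 2.94 and 2.44 CPM in wild type and 12.1, 45.4, 6.03 and 4.10 CPM in Q150X (2.44 ± 0.64), and the value was 1.15 ± 0.54 without both libraries. H2-K1, a class I heavy chain with near-identical relatives, stood at 142, 231, 163 and 159.9 CPM in wild type and 354, 747, 179 and 261 CPM in Q150X (1.15 ± 0.30, and 0.57 ± 0.23 without both libraries). Q150X library 2 was the highest for Fcgr4 and H2-K1, and for Adam8 it was second to Q150X library 3.

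**Figure D4:**
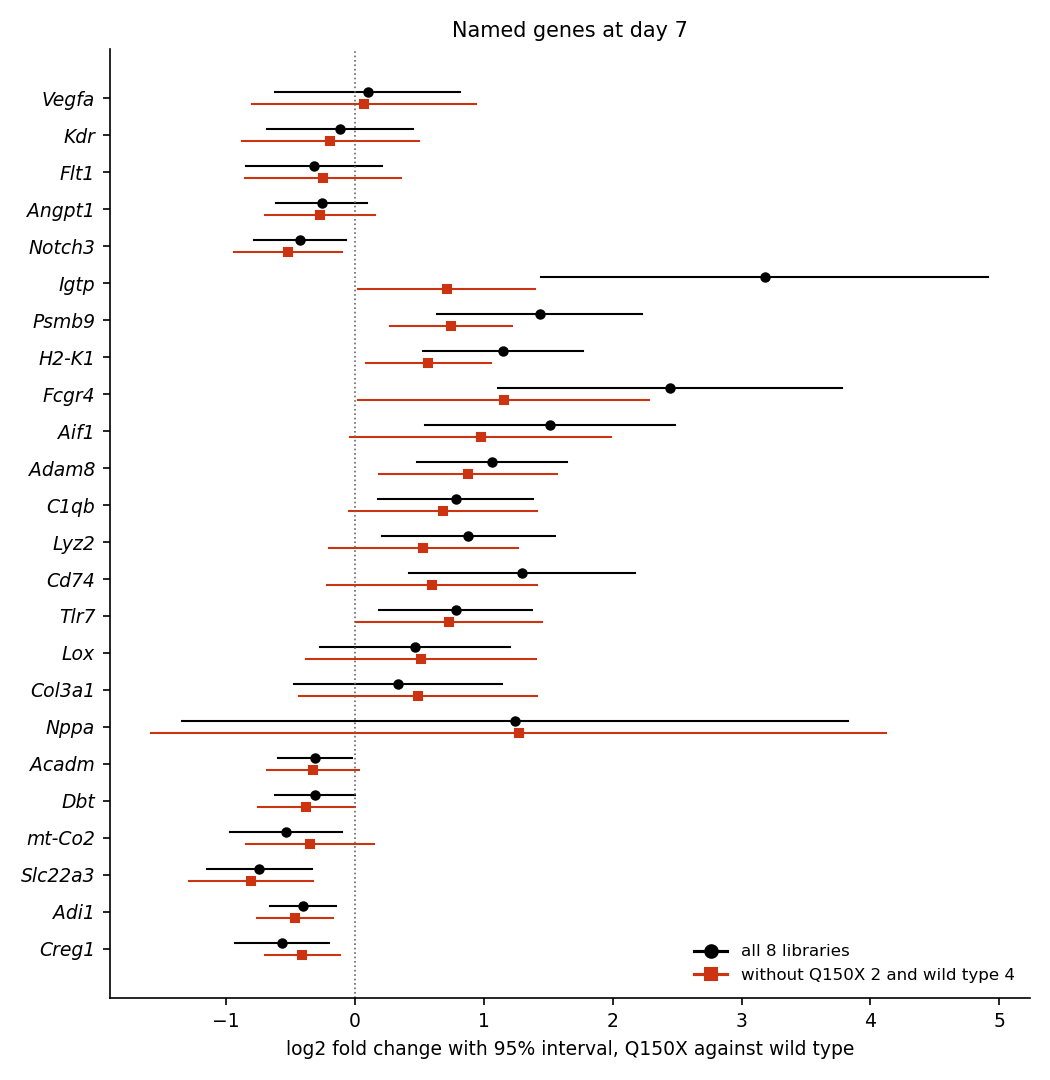
Log2 fold change of Q150X against wild type at day 7 with its 95% interval for 24 named genes, in black with all 8 libraries and in red without Q150X library 2 and wild-type library 4. The intervals of Igtp, Fcgr4 and Nppa are wide, and Igtp goes from 3.18 to 0.71 when both libraries are left out. Vegfa and Kdr stay near 0 in both fits, while Flt1 is at -0.32 with all 8 libraries, with an interval that includes 0.

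Of the 59 gene lists, 37 had a median above 0 and 22 had one at or below it. Beyond those described, heat shock and chaperone genes had a median of -0.05, cell cycle genes -0.03, hypoxia and glycolysis genes 0.02, genes of cardiac calcium handling -0.02 and clock genes -0.09. Immediate early genes had a median of 0.06, and the integrated stress response one of 0.19. Red blood cell genes went from -0.35 to 0.19 without both libraries, with summed levels of 329, 176, 497 and 857 CPM in wild type and 159, 315, 248 and 754 CPM in Q150X. Red blood cell RNA thus differed between libraries of both groups, and its part in the immune values was not tested.

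**Figure D5:**
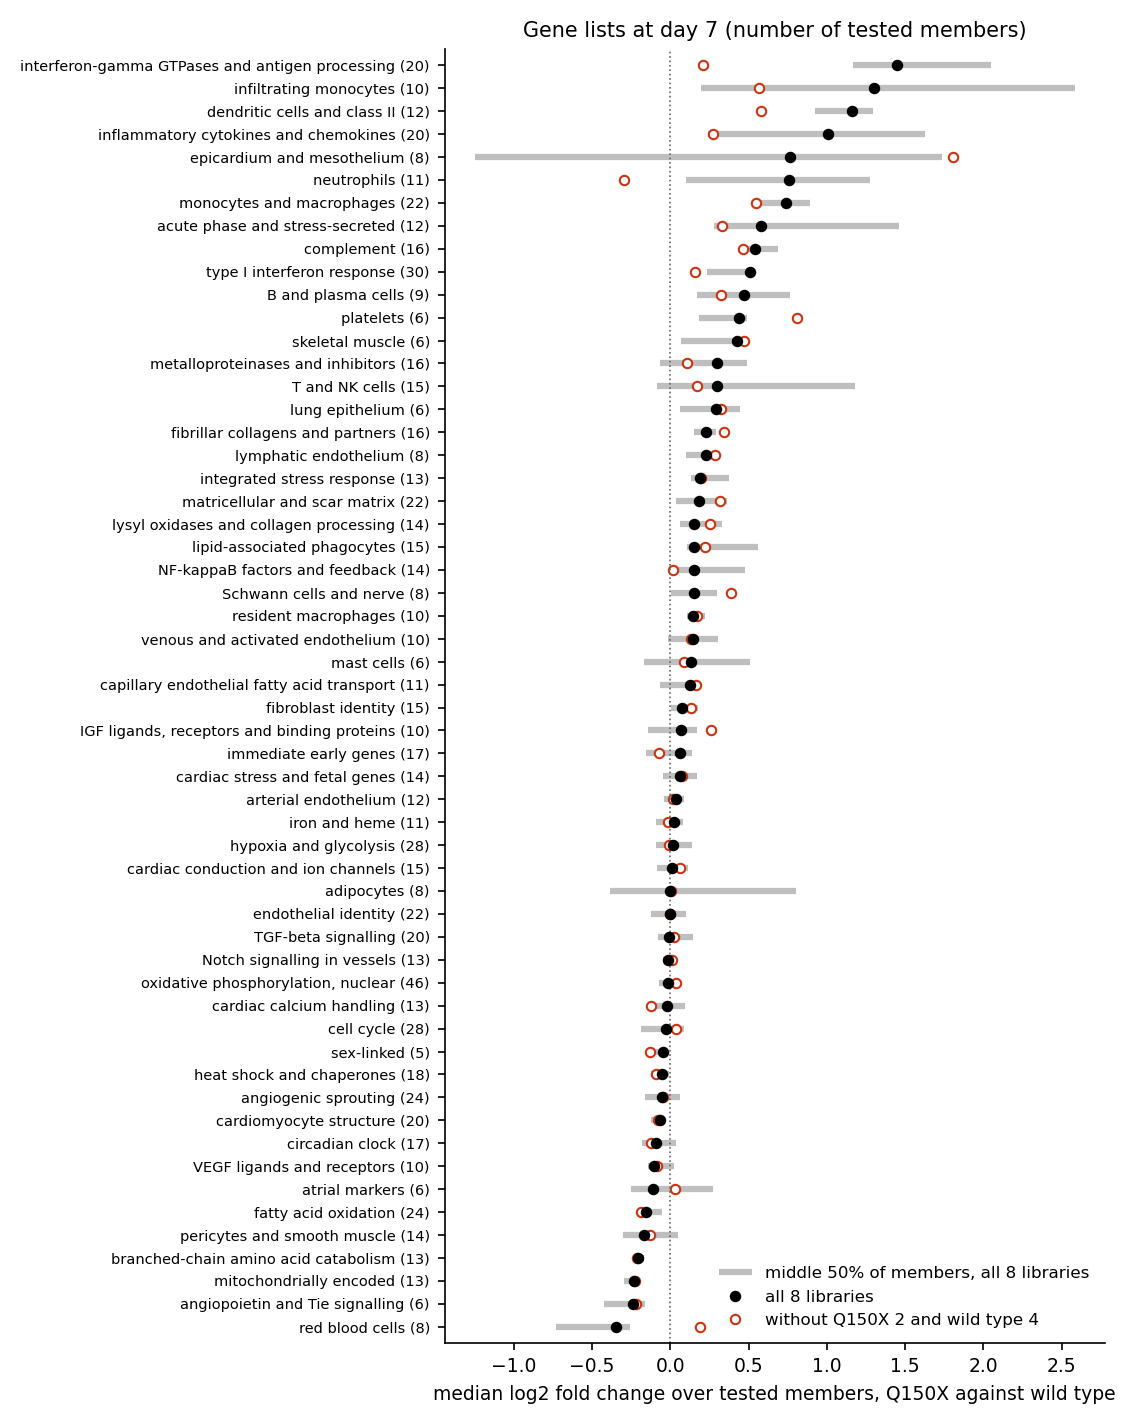
Median log2 fold change over the tested members of each list with at least 5 (their number in brackets), with black points for all 8 libraries, grey bars for the middle 50% of members and open red points without Q150X library 2 and wild-type library 4. The interferon-gamma list moves from 1.45 to 0.21 and neutrophil genes from 0.76 to -0.29, while macrophage, complement, pericyte and branched-chain amino acid lists stay on their side of 0.

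The day-7 differences were then set beside those of uninjured hearts and of day 30, which share no library with them but come from the same fit. The test of the difference between day 7 and homeostasis called 0 of 17845 genes (588, or 3.3%, at an unadjusted p under 0.05, smallest adjusted p = 0.532), against 1 in DESeq2 and 0 in voom. That between day 7 and day 30 called 0 (979, or 5.49%, at an unadjusted p under 0.05, smallest adjusted p = 0.0587), against 50 in DESeq2 and 48 in voom. Homeostasis on its own called 0 genes (504, or 2.82%, at an unadjusted p under 0.05) and day 30 called 79 (0.443%, with 2481, or 13.9%, at that p). Other settings of edgeR called 7 genes for day 7 against day 30 with the compared groups alone, 2 with no filter, 1 without Q150X library 1 and 1 without wild-type library 3.

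The genes nearest to such a difference were described by their values. Tlr13 and Tlr7, sensors of RNA in the endosomes of phagocytes, differed by 1.10 ± 0.33 and 0.78 ± 0.28 at day 7, and by -1.12 ± 0.41 and -0.79 ± 0.34 at homeostasis. At day 7, Tlr7 stood at 6.28, 5.29, 6.47 and 6.15 CPM in wild type and 10.7, 11.7, 10.01 and 9.19 CPM in Q150X, without overlap, and the value was 0.73 ± 0.34 without both libraries. Tmem254a, one of several like copies, stood at 6.79, 4.10, 1.35 and 2.68 CPM in wild type and 9.07, 8.84, 9.10 and 7.90 CPM in Q150X, also without overlap (1.23 ± 0.34, against -0.68 ± 0.39 at homeostasis). On the lower side, the transferrin receptor gene Tfrc differed by -0.28 ± 0.26 at day 7 and 1.03 ± 0.30 at homeostasis, and Epha4, an ephrin receptor, by -0.30 ± 0.16 and 0.52 ± 0.18.

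Against day 30 the smallest p belonged to Fosl2 and Sbno2. Fosl2, an AP-1 factor, differed by 0.21 ± 0.20 at day 7 and -1.68 ± 0.22 at day 30 (adjusted p of the day-30 difference 0.00411 by edgeR), and the difference between them was 1.89 ± 0.30 (adjusted p = 0.0587 by edgeR). Sbno2, a nuclear co-regulator induced by IL-10, differed by 0.34 ± 0.20 and -1.43 ± 0.21 (adjusted p at day 30 0.00759 by edgeR), and the difference between them was 1.78 ± 0.29 (adjusted p = 0.0587 by edgeR). At day 7 Sbno2 stood at 41.9, 32.8, 25 and 32.8 CPM in wild type and 42.5, 46.2, 39.1 and 40.3 CPM in Q150X, so the groups overlapped through wild-type library 1. In the other direction, Stab2, a scavenger receptor of sinusoidal endothelium, stood at 4.61, 1.82, 4.73 and 4.89 CPM in wild type and 0.937, 2.03, 2.31 and 2.64 CPM in Q150X at day 7 (-1.02 ± 0.37, against 1.35 ± 0.43 at day 30). Notch3 differed by -0.43 ± 0.17 at day 7, -0.19 ± 0.20 at homeostasis and -0.47 ± 0.18 at day 30, and Angpt1 by -0.26 ± 0.17, 0.38 ± 0.19 and -0.29 ± 0.18.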

How the data were processed

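The deposited table of the authors holds raw counts per gene, which are whole numbers, for 57010 gene identifiers in 43 libraries, and all columns used here match the labels. The submitters' processing notes name GRCm39, HISAT2 and kallisto, with tool versions, annotation and strand setting not given in the sources used here. Without a stated strand, overlapping and antisense genes cannot be told apart. Symbols came from GENCODE vM21 (GRCm38) by identifier for 52029 identifiers, and identifiers left unnamed took no more than 0.103% of any day-7 library. Promoter sequences came from RefSeq (GRCm38.p6).

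The 21 whole-heart libraries were fitted together in edgeR 4.0.16 (R 4.3.3) with TMM factors, 1 mean per group and the robust quasi-likelihood F-test, after filterByExpr (count minimum 10, total minimum 15) kept 17845 genes. Genes with a p, adjusted by Benjamini and Hochberg over all of them, under 0.05 were called. The SE was obtained by dividing the log2 fold change by the square root of F, the 95% intervals use the degrees of freedom of the fit, and CPM uses TMM-scaled library sizes. Counts of 29862324 to 37356177 per library leave counting error small beside the spread between libraries (biological coefficient of variation 0.286) for genes with many counts. That does not hold for genes under 1 CPM, such as Gzma, Gm12185 and Xist in most libraries. No replicate pair agreed within sampling noise (chi-square per gene 20.4 to 87.7, where counting alone gives about 1).

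The members, the 59 gene lists and the genes named were chosen with earlier results of these data known. The genes named are Vegfa, Kdr and Flt1, the called genes with the largest changes (there were 0), the 6 smallest p per direction of the day-7 comparison and the 4 smallest of its interactions (mean of at least 1 log2 CPM over the day-7 libraries and an ordinary symbol), up to 4 called members or else the 2 smallest p of each list, and members of the lists in which 1 library stood apart. Of 88 genes, 70 follow that rule and 18 were added after their values were seen, and a few genes that the rule names are not reported here. Lists were described by counts and medians, with no test. Alternatives were DESeq2 size factors in edgeR, library size alone, no filter, the compared groups alone, the replicate number as a block, DESeq2 1.42.0, voom with library weights (limma 3.58.1), each library left out, and both libraries left out, with 1 more added after the data were seen (both left out and the day-7 groups alone). The fit was tested on simulated data in which each gene varied on its own, so no simulated library stood apart as Q150X library 2 and wild-type library 4 did. The simulation therefore does not show how the fit handles such libraries. Python 3.11.15 made the tables.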

Additional observations from a re-analysis of the deposited data

Results flagged for a closer look

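A library is given here where its gap to the nearest of the other 3 in its group, over the range of the group, exceeded Dixon's 95% critical value for 4 libraries. Chance puts about 1 in 20 groups past that value. The number of groups screened is not given here, so the count of values below is a description. No cause was tested for any of them.

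The largest number of these values belong to Q150X library 2, 22 of 45, many of them genes that interferon-gamma induces. Genes of the interferon lists were named because this library stood apart, so their place here follows from that choice. The GTPases that attack the vacuoles of intracellular microbes stood at 318 CPM for Igtp, 194 for Irgm1, 211 for Irgm2, 482 for Iigp1, 363 for Gbp2, 35.2 for Tgtp1 and 82.2 for Tgtp2. The transcription factor Irf1 stood at 97.6 CPM. Of the antigen processing genes, Psmb9 stood at 28.1 CPM, Psmb10 at 59.8 and Tap1 at 92.6. The nucleic acid sensor Zbp1 was at 24.7 CPM, the chemokines Cxcl9 and Ccl5 at 89.4 and 10.99, and the acute phase gene Saa3 at 585. Gm12185 was at 23.8 CPM there, and at 0.243 CPM in wild-type library 1, which was the lowest of its group. Ly6c2, a marker of inflammatory monocytes, was at 15.2 CPM and the granzyme Gzma at 3.03 CPM. The summed levels in this library were 3501 CPM for the interferon-gamma list, 733 for the type I interferon list, 485 for cytokines and chemokines and 1772 for acute phase genes.

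Wild-type library 4 stood apart for placental genes, at a sum of 1670.4 CPM. Genes of the placental list were likewise named because this library stood apart. Tpbpa was at 466 CPM, the placental lactogen Prl3b1 at 319.8, the imprinted Peg10 at 114, the epithelial keratin Krt8 at 50.9 and Xist at 4.15. Its summed levels were also apart for epicardium and mesothelium (120.2 CPM), T and NK cells (9.92), immediate early genes (308) and skeletal muscle (539).

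Wild-type library 2 stood apart in summed levels of endothelial identity (2155 CPM), pericytes and smooth muscle (1269.9), IGF ligands, receptors and binding proteins (747) and iron and heme (1856). The macrophage gene Adgre1 was at 21.1 CPM there, Adam8 at 9.77, the neutrophil receptor Csf3r at 4.57 and the scavenger receptor Stab2 at 1.82. In wild-type library 3 the fibrillar collagen list summed to 1220.4 CPM and Fosl2 was at 100.04 CPM. Kdr was at 122 CPM in Q150X library 3, and the muscle repair gene Xirp1 at 346 CPM in Q150X library 1.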

How the results depend on the processing

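The count of genes called at day 7 was 0 in edgeR under every alternative and in voom, and 4 in DESeq2. Of those, BC023105, Gm12250 and F830016B08Rik had most of their counts in Q150X library 2, and S100g had 136 counts in wild-type library 4 and 0 in the other 7. At an unadjusted p under 0.05 the count of 561 became 736 with the day-7 groups alone, 989 with no filter and 1517 in voom. It was 345 without both libraries and 356 to 712 with 1 library left out (356 without Q150X library 2). The interaction with homeostasis gave 0 genes and DESeq2 1. The interaction with day 30 gave 0, but 2 with no filter, 7 with the compared groups alone, 50 in DESeq2, 48 in voom and 0 to 1 with 1 library left out (1 without Q150X library 1, 1 without wild-type library 3). The causes were not tested.

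Of 86 genes of the text that were tested, 77 kept their sign in every alternative and 0 values passed the adjusted test. The ranges of log2 fold changes with 1 library left out were -0.0975 to 0.0607 for Vegfb, -0.319 to 0.0661 for Vegfc, -0.0691 to 0.186 for Vegfd, -0.191 to 0.0218 for Kdr, -0.0611 to 0.113 for Flt4, -0.271 to 0.115 for Nrp2, -3.46 to 0.614 for Krt8, -0.214 to 0.494 for Nppb and -0.587 to 0.355 for Myh7. In other alternatives Vegfb was 0.0517 with library size alone, 0.0186 in voom and 0.00846 without both libraries, Flt4 was -0.00167 and Krt8 0.93 without both libraries, and Myh7 was -0.37 in voom. With both left out and the day-7 groups alone, Flt4 was -0.0136 and Krt8 0.92. The median of 29 of 59 lists kept its side in every alternative.

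Deviations of same-numbered libraries from their group means had correlations of -0.04, 0.03, 0.08 and 0.00. Libraries of unlike number gave -0.23 to 0.29. Such correlations cannot settle whether the numbers pair libraries. The replicate block gave 0 genes at day 7, with 725 at an unadjusted p under 0.05, and a value of -0.16 for Myh7. With 4 libraries a group, the median interval reached 0.51 to each side on the log2 scale.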
